A study of Mus musculus with 16 samples.

Results

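The 39 genes described here are textbook genes of macrophages and other myeloid cells, found in the deposited count table of islets from *db/db* mice by their gene symbol. All 39 symbols were in the table, once each, among 54532 genes. Of these, 38 had enough reads to be tested between treatments, and the lectin gene *Clec10a* did not (3 counts in its lowest sample of either treatment). The islets came from male mice of 12 to 13 weeks, strain BKS(D)-Leprdb/JOrlRj, whose leptin receptor does not work. At 11 mmol/l glucose they were cultured during 1 day with DMSO, the vehicle, or with 10 µmol/l adjudin, the small molecule that the study tested. There were 8 samples of each treatment in batches numbered 1 to 8, and each batch held 1 sample of each treatment. A sample was the islets of a single mouse or of a pair of mice, and adjudin was given to the cultured islets and not to the animals. All samples, those with DMSO included, were thus islets of diabetic mice, and lean control islets were not analysed here.

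Macrophages are the main resident immune cells of islets. They depend on the growth factor receptor encoded by *Csf1r* and on the transcription factor PU.1 (*Spi1*), take up material through Fc, complement and scavenger receptors, degrade it in lysosomes and can release superoxide through the phagocyte NADPH oxidase. In *db/db* mice and other models of diabetes, islet macrophages are known to increase in number and to change state. In whole islets their transcripts are read together with those of endocrine, stromal and endothelial cells, and fewer cells of a type cannot be told apart from less RNA per cell.

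Sequences next to the start are shown for 4 of the 7 members whose window holds the letters AGGAAGT, part of the site that PU.1 binds. The 4 are examples chosen with their values known, and *Folr2*, *Mrc1* and *Ms4a6c* are not shown. RefSeq (GRCm38.p6) gave a start or several starts for 29 of the 39 genes, and the 250 bases before each start were searched on both strands. A gene was counted if any of its windows held the string, here and over all mouse genes, so genes with several starts had more windows to match. AGGAAGT or its reverse complement occurred for 7 of the 29 genes (24.1%), against 8.80% of 27025 mouse genes with such a window. The longer string GAGGAAGT occurred for 0 of 29 (2.79% of all genes), the shorter GGAAGT, which AGGAAGT contains, for 11 of 29 (37.9% against 22.2%), and the ETS-IRF composite element, which PU.1 can occupy with IRF8, for 2 of 29 (6.90% against 2.68%). The 4 other strings were GAGGAA (37.9% of the 29 against 25.9% of all genes), GGAAGTG (17.2% against 9.77%), TGAGTCA (13.8% against 5.16%) and TGACGCAA (0 of 29 against 0.507%). All 8 strings were searched on both strands and several overlap each other. A match is a description of the letters and no evidence of binding. Each window below runs 5′ to 3′ along the strand of its gene and ends just before the start that RefSeq gives. That start can differ from the gene bounds listed with the counts. The window of *Ptprc* lies inside those bounds, which reach 138175708. The windows of *C5ar1* (bound at 16259540) and *Lyz2* (bound at 117282321) lie partly inside them. Capitals mark AGGAAGT or its reverse complement ACTTCCT.
*C5ar1*, chr7:16259339-16259588, minus strand: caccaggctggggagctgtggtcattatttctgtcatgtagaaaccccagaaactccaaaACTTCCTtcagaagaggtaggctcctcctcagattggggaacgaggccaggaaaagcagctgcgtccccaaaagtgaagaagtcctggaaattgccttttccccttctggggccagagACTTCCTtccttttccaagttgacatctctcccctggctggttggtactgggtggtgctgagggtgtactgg
*Fcgr1*, chr3:96293970-96294219, minus strand: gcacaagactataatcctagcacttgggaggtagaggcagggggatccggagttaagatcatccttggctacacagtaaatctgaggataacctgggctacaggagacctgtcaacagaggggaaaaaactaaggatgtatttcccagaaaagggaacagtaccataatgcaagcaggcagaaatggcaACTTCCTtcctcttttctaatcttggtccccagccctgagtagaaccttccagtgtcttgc
*Lyz2*, chr10:117282273-117282522, minus strand: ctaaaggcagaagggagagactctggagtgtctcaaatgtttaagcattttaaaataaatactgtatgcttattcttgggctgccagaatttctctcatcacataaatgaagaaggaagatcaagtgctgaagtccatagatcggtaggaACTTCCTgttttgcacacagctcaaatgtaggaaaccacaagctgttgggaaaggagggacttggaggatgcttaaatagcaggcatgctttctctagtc
*Ptprc*, chr1:138175306-138175555, minus strand, from the more upstream of 2 starts whose window had a match: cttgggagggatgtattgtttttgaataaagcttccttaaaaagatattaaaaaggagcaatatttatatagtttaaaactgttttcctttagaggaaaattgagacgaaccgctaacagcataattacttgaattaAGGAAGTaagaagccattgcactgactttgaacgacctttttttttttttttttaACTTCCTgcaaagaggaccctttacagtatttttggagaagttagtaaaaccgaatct
The string begins 190 and 72 bases before the start of *C5ar1*, 61 before that of *Fcgr1*, 100 before that of *Lyz2* and 113 and 58 before that of *Ptprc*. *C5ar1* and *Fcgr1* were among the genes lowered by adjudin, whereas *Lyz2* and *Ptprc* did not pass the test, as described below.

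The samples held 24190102 to 32675186 counted reads with DMSO and 24852862 to 34471164 with adjudin. Beta cell markers were abundant in all samples, with a summed level of 36110 to 121700 CPM (counts scaled to the size of the library) over 10 genes with DMSO, led by *Ins2*, so the labelled tissue was borne out by its markers. The preparations also held stellate cells or fibroblasts (12 markers, 9757 to 19980 CPM), acinar cells (8 markers, 5101 to 12480 CPM) and endothelial cells (10 markers, 403 to 1031 CPM). The 39 myeloid genes took 0.109% to 0.182% of all counts with DMSO. Markers of other leukocytes were rare. Neutrophil markers summed to 0.273 to 0.742 CPM over 9 genes with DMSO, with *Ly6g* at 0 counts in all 16 samples and *Mpo* the highest at 0.179 CPM. Mast cell markers summed to at most 0.151 CPM with DMSO and 0.362 CPM with adjudin over 6 genes, *Ms4a2* being the highest. *Cd3e* of T cells reached at most 11 counts and *Ms4a1* of B cells at most 10 counts in any sample. T and NK cell markers summed to 8.60 to 11.4 CPM over 12 genes, of which *Il7r* had 5.54 ± 0.587 CPM (SD, n = 8), and B cell markers to 1.52 to 4.38 CPM over 6 genes, mostly *Jchain* of plasma cells. Dendritic cell markers summed to 7.67 to 13.1 CPM over 8 genes, mostly *Zbtb46* with a mean of 6.99 CPM, while *Flt3* reached at most 19 counts in any sample.

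With DMSO the most abundant member per length was *Lyz2*, which encodes lysozyme. It had 256 CPM per kilobase, followed by *Ctss*, a lysosomal cysteine protease (104), *Cyba* of the NADPH oxidase (73.9), the lipopolysaccharide co-receptor gene *Cd14* (51.9), *Cd68* of late endosomes (41.7), *Mpeg1*, a pore-forming protein of phagosomes (38.7), and the Fc receptor adaptor gene *Fcer1g* (34.7). These are levels of CPM divided by the gene length in the table. Genes that mark tissue macrophages around vessels were low on the same scale, with 1.73 CPM per kilobase for the mannose receptor gene *Mrc1*, 1.68 for the hyaluronan receptor gene *Lyve1*, 1.02 for the folate receptor gene *Folr2* and 0.207 for the haemoglobin scavenger receptor gene *Cd163*. The level of *Folr2* may be understated, since 63.1% of its exonic bases overlap another gene on the other strand. *Ccr2*, the chemokine receptor of inflammatory monocytes, was at 0.0840 CPM per kilobase and *Cx3cr1*, the fractalkine receptor gene of resident macrophages, at 6.71. *Clec10a* (0.111) and the scavenger receptor gene *Marco* (0.305) were near the detection limit as well.

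Adjudin lowered most of the macrophage and myeloid genes. Of 38 tested, 27 were downregulated and 1, *Lyve1*, was upregulated at an adjusted p under 0.05, against 3.44% of all 16910 tested genes downregulated and 2.62% upregulated (6.06% in either direction). The falls were modest, from 13.1% for *Cyba* to 28.8% for *Ncf1*, and the median log2 fold change over the 38 genes was -0.34, against 0.0032 over all tested genes. All members except *Lyve1* had a fold change below 0 (37 of 38), where 48.6% of all tested genes did. Each gene was compared by edgeR's quasi-likelihood test with the batch as a term, which compares the treatments within batches, and the adjustment of p covered all 16910 genes. The standard error (SE) of a log2 fold change is the one that the test implies.

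**Figure D1:**
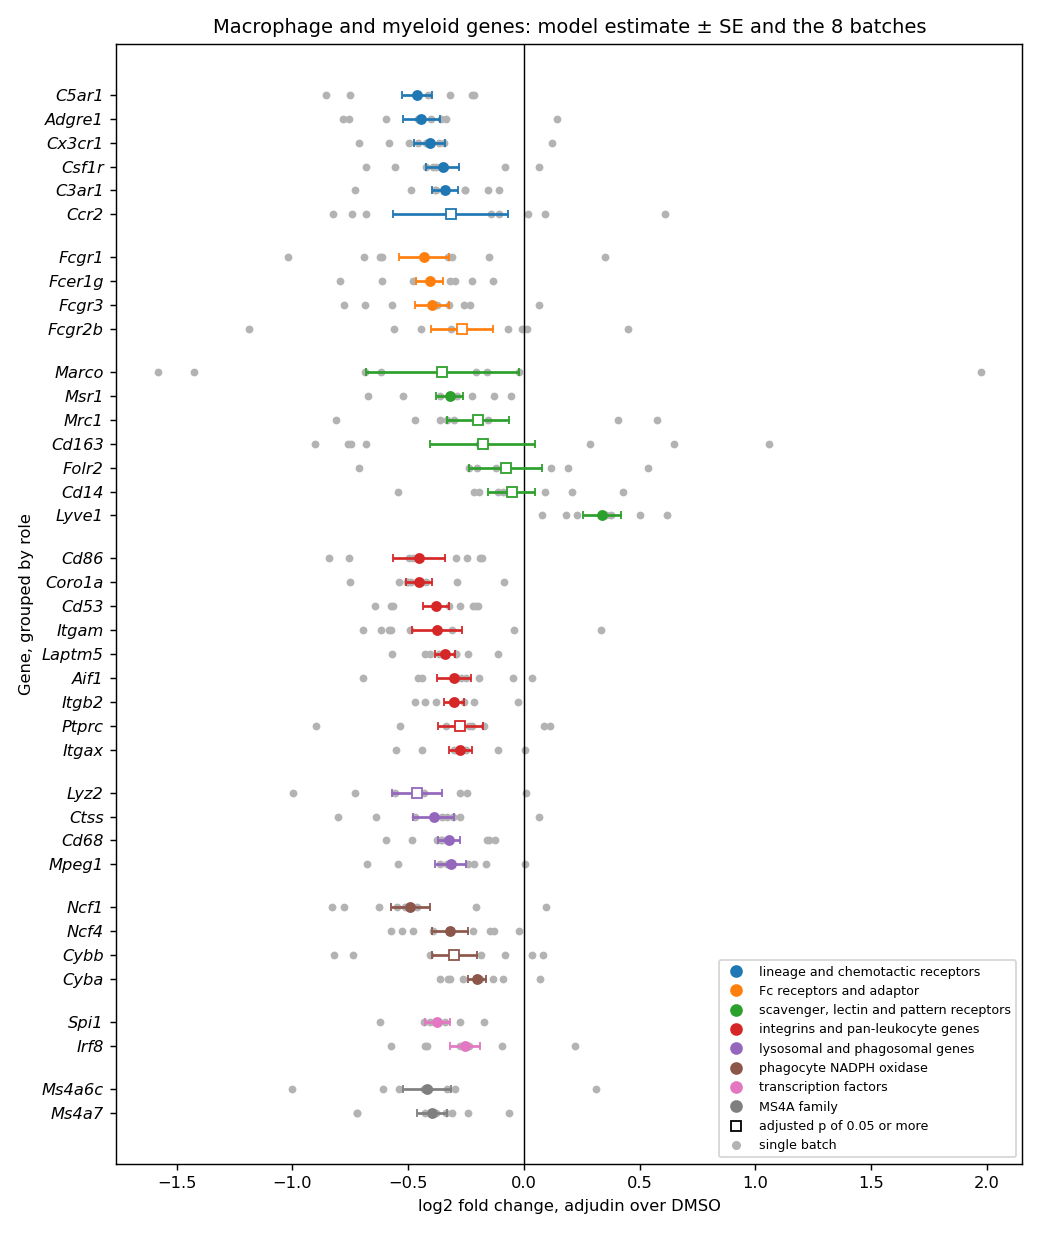
Log2 fold change of adjudin over DMSO (x axis) for each of 38 tested genes (y axis, grouped and coloured by role), with the model estimate and its standard error; filled circles passed an adjusted p of 0.05, open squares did not, and grey points are the 8 single batches. Estimates lie between -0.49 for Ncf1 and -0.053 for Cd14, except Lyve1 at 0.34.

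Batch 5 stood apart from the others. A fall in 8 of 8 batches was found for 13 members, where 3.15% of all tested genes did so, and each of these 13 also passed the test. The other 14 downregulated members fell in 7 of 8 batches. The number of members below their DMSO sample was 31 to 36 of 38 in 7 of the batches, with a median log2 difference of -0.62 (batch 2) to -0.28 (batch 4). In batch 5 it was 16 of 38, with a median of 0.021. The DMSO sample of batch 5 was the lowest of the 8 for 29 of the 38 members, and that of batch 8 was the highest for 17. The groups overlapped for every member, since no member had all adjudin samples below all DMSO samples (0.0118% of tested genes did).

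Summed over all 39 genes, the level was 1077 CPM in the lowest DMSO sample (batch 5), 1512 at the median and 1792 in the highest (batch 8). With adjudin it was 1044, 1089 and 1366 CPM in the same order. The sum was lower with adjudin in 8 of 8 batches, by a mean log2 ratio of -0.35 ± 0.19 (SD over 8 batches). The ratio ran from -0.62 in batch 1 (1658 CPM with DMSO and 1077 with adjudin) to -0.014 in batch 5 (1077 and 1067 CPM). Adjudin samples lay closer together than DMSO samples, and the sum of batch 5 with adjudin was within the range of the other adjudin samples.

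**Figure D2:**
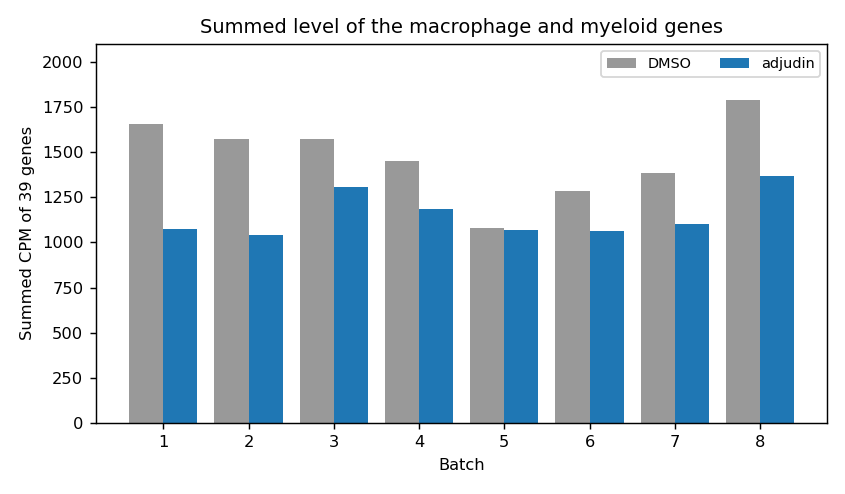
Summed CPM of the 39 genes (y axis) in the DMSO (grey) and adjudin (blue) sample of each batch (x axis); each bar is 1 sample. The blue bar is the lower in all 8 batches, and the pair of batch 5 is nearly level (1077 and 1067 CPM).

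The calls rested on the comparison within batches. Without the batch term, 0 of 38 members passed in edgeR, 0 in DESeq2 and 0 in limma-voom. At an unadjusted p under 0.05, 27 members were lower in edgeR, where 2.27% of tested genes were (384 of 16910). In DESeq2 28 members were lower, against 426 of all tested genes, and in limma-voom 24, against 365. With any 1 batch left out, 18 to 28 members were downregulated, the fewest without batch 3 or batch 8.

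Receptors that maintain macrophages and guide their movement were lowered. Of 6 tested, 5 were downregulated. *Csf1r* (ENSMUSG00000024621, chr18:61105572-61132149), the receptor for CSF1 and IL-34, had 38.8 CPM in its lowest DMSO sample, 46.6 at the median and 64.9 in the highest, and 26.3, 39.3 and 49.9 CPM with adjudin. It fell in 7 of 8 batches (log2 fold change -0.35, SE 0.071, adjusted p = 0.0160) and rose by 0.063 on the log2 scale in batch 5. The call was kept in 5 of 8 fits that left out a batch, with a largest adjusted p of 0.0635 without batch 4. In the reference annotation 15.1% of its 5774 exonic bases overlap *Hmgxb3* on the other strand. The gene length deposited with the counts was 4885 bases, so the counted gene model differed. Whether it held the overlap was not tested, and whether the counting used strand is not stated. *Adgre1*, which encodes the F4/80 antigen that defines mouse macrophages, had 14.96, 22.5 and 28.2 CPM with DMSO (lowest, median and highest) and 12.7, 15.7 and 20.6 CPM with adjudin (log2 fold change -0.44, SE 0.081, adjusted p = 0.00489). It was lower in every batch but batch 5 and passed with any batch left out.

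*Cx3cr1* had 22.7, 29.6 and 37.3 CPM with DMSO and 17.4, 21.8 and 28.9 CPM with adjudin, and was lower in 7 of 8 batches (log2 fold change -0.41, SE 0.067, adjusted p = 0.00178). *C5ar1* and *C3ar1*, receptors for complement fragments that attract and activate phagocytes, fell in 8 of 8 batches. *C5ar1* (ENSMUSG00000049130, chr7:16246743-16259540) went from 15.7, 20.3 and 26.0 CPM with DMSO to 11.4, 13.8 and 19.5 CPM with adjudin (log2 fold change -0.46, SE 0.065, adjusted p = 1.6e-04). *C3ar1* had 23.2, 26.2 and 31.1 CPM with DMSO and 18.1, 21.8 and 25.3 CPM with adjudin (log2 fold change -0.34, SE 0.057, adjusted p = 8.0e-04). Its highest DMSO sample was 1.34 times the lowest, the smallest such ratio of the members. *Ccr2* was low and did not pass, with 0.152, 0.560 and 0.947 CPM with DMSO and 0.262, 0.397 and 0.748 CPM with adjudin (log2 fold change -0.32, SE 0.25, adjusted p = 0.506, lower in 5 of 8 batches).

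The list of the CSF1 and chemokine axis holds ligands of these receptors and further receptors. Of 13 tested, 7 of them ligands or their precursors and 6 receptors, none was downregulated and 1 was upregulated, with a median log2 fold change of -0.099. At the 3.44% and 2.62% of all tested genes, so short a list would hold few calls in either direction. *Csf1* itself, which islets expressed at 214 ± 53.0 CPM with DMSO, had 221 ± 54.0 CPM with adjudin (± SD of 8 samples each; log2 fold change 0.049, SE 0.030, adjusted p = 0.362), and *Il34* had -0.030 (adjusted p = 0.861). The fractalkine gene *Cx3cl1* had 0.089 (adjusted p = 0.165) and the CCR2 ligand genes *Ccl2* -0.17 (adjusted p = 0.0779), *Ccl7* -0.16 (adjusted p = 0.0777) and, at under 1 CPM, *Ccl12* -0.90 (SE 0.30, adjusted p = 0.0852). Among the receptors, *C5ar2*, which also binds C5a, was lower in 6 of 8 batches and did not pass (-0.36, SE 0.17, adjusted p = 0.219). *C3*, the source of the C3AR1 ligand, was the gene that rose, from 143 ± 32.8 to 180 ± 45.9 CPM (± SD of 8 samples each; log2 fold change 0.32, SE 0.068, adjusted p = 0.0271), and it was higher in 8 of 8 batches.

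Fc receptors bind antibody-coated particles. Of 4 tested, 3 were downregulated, the shared signalling chain among them. The adaptor gene *Fcer1g* had 22.3, 29.0 and 36.3 CPM with DMSO and 20.1, 21.8 and 29.6 CPM with adjudin, lower in 8 of 8 batches (log2 fold change -0.41, SE 0.059, adjusted p = 2.8e-04). The activating receptor genes *Fcgr3* (-0.40, SE 0.075, adjusted p = 0.00544) and *Fcgr1* (-0.43, SE 0.11, adjusted p = 0.0254) were each lower in 7 of 8 batches. The inhibitory receptor gene *Fcgr2b* was at -0.27 with a wider spread (SE 0.13, adjusted p = 0.270, lower in 6 of 8 batches). It ran from 2.92 to 8.39 CPM with DMSO and from 2.61 to 8.00 CPM with adjudin. *Fcgr3* shared 2.54% of its 100-base stretches of transcript with *Fcgr2b*. Whether reads from these stretches could be assigned to either gene was not tested. The call of *Fcgr1* was kept in 3 of 8 fits that left out a batch (largest adjusted p 0.0890 without batch 4).

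Scavenger, lectin and pattern receptors had the smallest share of falls among the groups. Of 7 tested, 1 was downregulated, 1 upregulated and 5 did not pass. *Msr1*, the class A scavenger receptor for modified lipoproteins, went from 58.9 ± 15.02 CPM to 47.0 ± 11.6 CPM (± SD of 8 samples each; log2 fold change -0.32, SE 0.057, adjusted p = 0.00458) and fell in 8 of 8 batches. *Cd14* was nearly level, with 69.7, 78.2 and 97.6 CPM with DMSO and 65.8, 75.3 and 93.9 CPM with adjudin (log2 fold change -0.053, SE 0.10, adjusted p = 0.824). It was lower in 5 batches and higher in 3, by -0.55 to 0.43 on the log2 scale. *Mrc1* (-0.20, SE 0.13, adjusted p = 0.438), *Cd163* (-0.18, SE 0.23, adjusted p = 0.713), *Folr2* (-0.079, SE 0.16, adjusted p = 0.827) and *Marco* (-0.35, SE 0.33, adjusted p = 0.589) did not pass either, and their standard errors leave room for a fall as large as that of *Msr1*. For *Folr2*, 63.1% of the exonic bases overlap *Gm10602* on the other strand.

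*Lyve1* (ENSMUSG00000030787, chr7:110850607-110863239) was the only member to rise. It had 3.13, 4.57 and 7.12 CPM with DMSO (lowest, median and highest) and 3.97, 5.72 and 8.47 CPM with adjudin, and was higher in 8 of 8 batches, as 2.22% of tested genes were (log2 fold change 0.34, SE 0.083, adjusted p = 0.0180). Without batch 3 the adjusted p was 0.0645. Besides a subset of tissue macrophages, lymphatic endothelial cells express *Lyve1*. The 6 lymphatic endothelial markers summed to 51.4 to 93.3 CPM with DMSO and 54.2 to 109 CPM with adjudin, higher with adjudin in 8 of 8 batches. Of 4 tested, none was called (median log2 fold change 0.15), among them *Flt4* (0.16, adjusted p = 0.0632) and *Prox1* (0.15, adjusted p = 0.0704), which islet endocrine cells also express. The lymphatic chemokine gene *Ccl21a* was at 0 in every DMSO sample and had at most 16 counts with adjudin, and *Mmrn1* reached at most 5 counts. Their part in the rise of *Lyve1* was not tested.

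**Figure D3:**
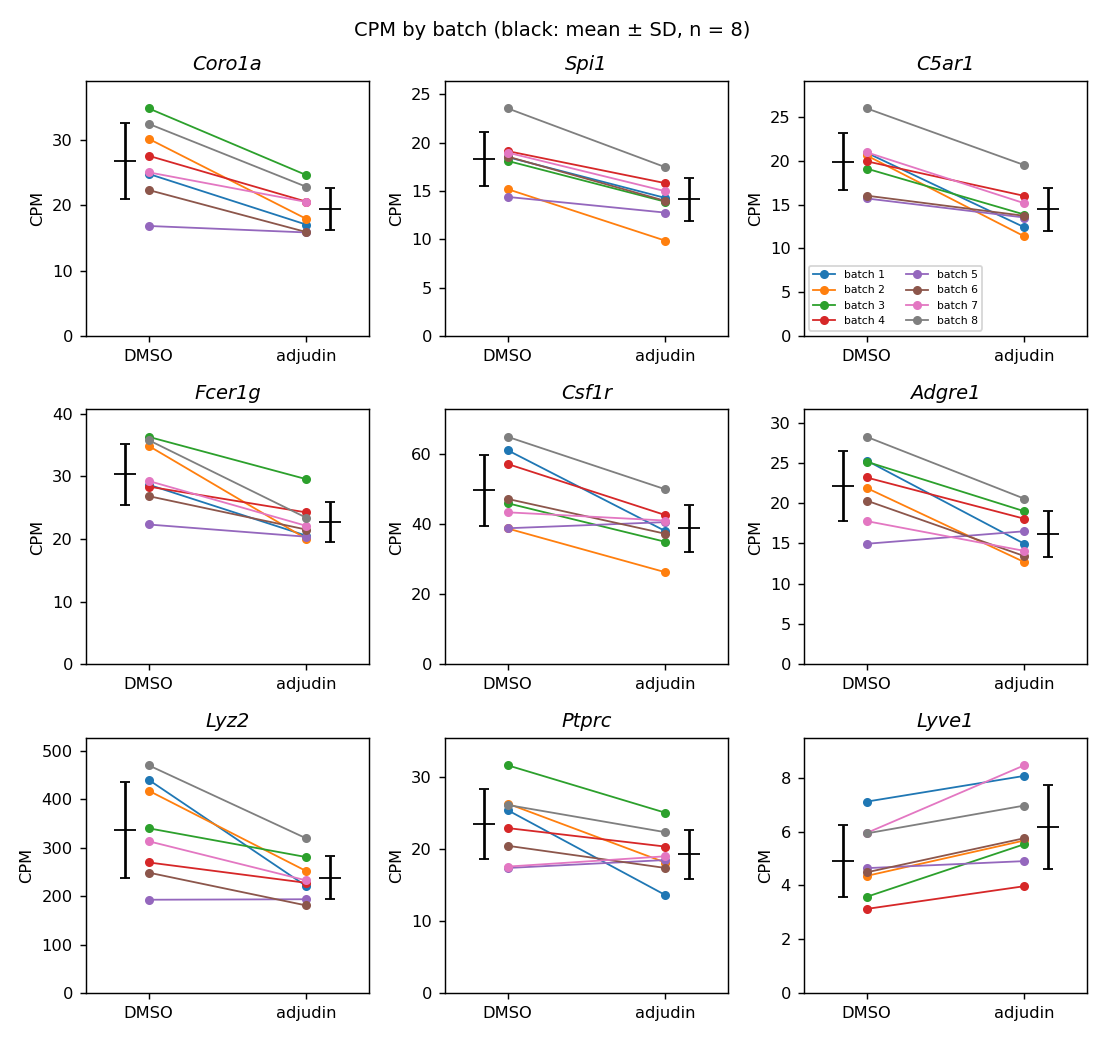
CPM (y axis, from 0) of 9 members in the DMSO and adjudin sample of each batch, joined by a coloured line per batch, with the mean ± SD of 8 samples in black. Coro1a, Spi1, C5ar1 and Fcer1g fall in 8 of 8 batches, Csf1r, Adgre1 and Lyz2 in 7, Ptprc in 6, and Lyve1 rises in 8.

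Integrins and genes shared by leukocytes were mostly lowered. Of 9 tested, 8 were downregulated. *Coro1a* (ENSMUSG00000030707, chr7:126699773-126707787), an actin regulator of haematopoietic cells, had the smallest p of all members. It had 16.9, 26.3 and 34.9 CPM with DMSO and 15.9, 19.2 and 24.6 CPM with adjudin (log2 fold change -0.45, SE 0.056, adjusted p = 3.9e-05). *Laptm5*, a lysosomal membrane protein of haematopoietic cells, went from 30.7, 48.6 and 62.4 CPM to 23.1, 38.9 and 43.9 CPM (log2 fold change -0.34, SE 0.043, adjusted p = 4.8e-05). The tetraspanin gene *Cd53* had 16.6, 21.1 and 34.0 CPM with DMSO and 14.5, 15.9 and 28.1 CPM with adjudin (log2 fold change -0.38, SE 0.056, adjusted p = 2.4e-04). All of these fell in 8 of 8 batches.

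*Itgb2*, the beta chain that leukocyte integrins share, had 33.8, 45.4 and 53.1 CPM with DMSO and 28.3, 36.9 and 42.8 CPM with adjudin, lower in 8 of 8 batches (log2 fold change -0.30, SE 0.043, adjusted p = 1.5e-04). Its partner *Itgax* (CD11c), typical of islet macrophages, had a level of 6.73 CPM per kilobase with DMSO, where *Itgam* (CD11b) had 1.00, and fell by 0.27 on the log2 scale (SE 0.050, adjusted p = 0.00188). *Itgam* had 3.23, 5.00 and 6.89 CPM with DMSO and 2.95, 3.78 and 5.33 CPM with adjudin (log2 fold change -0.38, SE 0.11, adjusted p = 0.0437). That call was kept in 1 of 8 fits that left out a batch (largest adjusted p 0.144 without batch 4) and was lost in limma-voom (0.0560). Of the exonic bases of *Itgam*, 68.7% overlap *Gm49368* on the same strand, which had 0 counts in all samples, so reads from the overlap may be in neither count. The level of *Itgam* per kilobase, set beside that of *Itgax* above, may therefore be understated. The costimulatory gene *Cd86* (-0.45, SE 0.11, adjusted p = 0.0202, 8 of 8 batches) and the calcium-binding protein gene *Aif1* (-0.30, SE 0.074, adjusted p = 0.0179, 7 of 8) fell as well. Without batch 3 their adjusted p values were 0.0845 and 0.0723.

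*Ptprc*, which encodes the CD45 phosphatase of all leukocytes, did not pass. It had 17.3, 24.1 and 31.6 CPM with DMSO and 13.6, 18.7 and 25.0 CPM with adjudin (log2 fold change -0.28, SE 0.097, adjusted p = 0.131), lower in 6 of 8 batches and higher in batches 5 and 7. The difference ran from -0.90 in batch 1 to 0.11.

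Lysosomal and phagosomal genes, which hold the most abundant members, were lowered as well, with 3 of 4 downregulated. *Cd68* had 40.6, 52.3 and 60.9 CPM with DMSO and 33.2, 42.2 and 47.1 CPM with adjudin, lower in 8 of 8 batches (log2 fold change -0.32, SE 0.047, adjusted p = 2.4e-04). *Mpeg1* (-0.32, SE 0.068, adjusted p = 0.0290) and *Ctss* passed more narrowly. *Ctss* went from 90.9, 145 and 180 CPM to 92.7, 98.2 and 149 CPM (log2 fold change -0.39, SE 0.088, adjusted p = 0.0435) and kept the call in 2 of 8 fits that left out a batch, where *Mpeg1* kept it in 3. Both had their largest adjusted p without batch 4 (0.115 and 0.0796).

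*Lyz2* (ENSMUSG00000069516, chr10:117277331-117282321) had 193, 327 and 470 CPM with DMSO and 181, 230 and 319 CPM with adjudin. Its fall, the second largest of the members after that of *Ncf1*, was just over the threshold (-0.46, SE 0.11, adjusted p = 0.0527, lower in 7 of 8 batches). The gene passed in DESeq2 (0.00132) and in limma-voom (0.00143). It made up 17.9% to 26.6% of the members' counts with DMSO and 17.0% to 24.1% with adjudin. Of its 100-base stretches, 1.97% also occur in the related gene *Lyz1*.

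The phagocyte NADPH oxidase makes superoxide at the phagosome. Of 4 subunit genes tested, 3 were downregulated. *Ncf1*, the organiser subunit p47phox, had the largest fall of all members, from 12.8 ± 2.74 CPM to 9.04 ± 1.31 CPM (± SD of 8 samples each; log2 fold change -0.49, SE 0.083, adjusted p = 0.00117), and 11.1% of its exonic bases overlap *Gtf2ird2* on the other strand. *Ncf4*, encoding p40phox, fell in 8 of 8 batches (-0.32, SE 0.078, adjusted p = 0.0179). The membrane subunits were *Cybb*, the catalytic gp91phox, and *Cyba*, its partner p22phox. *Cybb* had 14.1, 20.7 and 22.9 CPM with DMSO and 11.5, 15.5 and 20.2 CPM with adjudin and did not pass (-0.30, SE 0.097, adjusted p = 0.0956). It passed in DESeq2 (0.0182) and limma-voom (0.0481). *Cyba*, which many cell types express, had the smallest called fall, from 63.0, 77.9 and 90.0 CPM to 61.4, 66.2 and 71.6 CPM (-0.20, SE 0.041, adjusted p = 0.00487). Of 7 further oxidase genes tested, 3 were downregulated. Among these were the haematopoietic GTPase gene *Rac2* (-0.36, adjusted p = 0.0274) and *Nox4* (-0.31, adjusted p = 0.0229), the catalytic subunit of a non-phagocytic oxidase. The ubiquitous *Rac1*, the most abundant, had -0.058 (adjusted p = 0.217).

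Both transcription factors of the list were downregulated. *Spi1* (ENSMUSG00000002111, chr2:91082390-91115756) had 14.4, 18.5 and 23.5 CPM with DMSO and 9.85, 14.1 and 17.5 CPM with adjudin, lower in 8 of 8 batches (log2 fold change -0.37, SE 0.052, adjusted p = 1.4e-04), and passed with any batch left out. *Irf8*, which acts with PU.1 in myeloid cells, fell from 22.5 ± 3.27 CPM to 18.9 ± 2.97 CPM (± SD of 8 samples each; log2 fold change -0.25, SE 0.066, adjusted p = 0.0274) in 7 of 8 batches and kept the call in 2 of 8 fits that left out a batch (largest adjusted p 0.0930 without batch 8). Of 14 other factors known from macrophages, 4 were downregulated and none was upregulated (median log2 fold change -0.092). They were *Maf* (-0.30, adjusted p = 5.3e-04), *Cebpa* (-0.19, adjusted p = 0.00236), *Irf5* (-0.25, adjusted p = 0.0134) and *Tfec* (-0.59, adjusted p = 0.0458).

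The tetraspanning MS4A genes both fell. *Ms4a7* had 14.3, 17.9 and 28.3 CPM with DMSO and 11.2, 12.6 and 22.4 CPM with adjudin, lower in 8 of 8 batches (log2 fold change -0.40, SE 0.064, adjusted p = 6.1e-04). *Ms4a6c* went from 7.13 ± 2.13 CPM to 5.28 ± 1.41 CPM (± SD of 8 samples each; log2 fold change -0.42, SE 0.10, adjusted p = 0.0201), with 53.1% of its exonic bases overlapping *BE692007* on the other strand, and had an adjusted p of 0.0694 without batch 2.

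Other genes of myeloid cells were described in lists of their own. Of 22 genes of ITAM and haematopoietic signalling, 12 were downregulated and none upregulated (median log2 fold change -0.26), led by *Tyrobp*, the DAP12 adaptor (-0.42, adjusted p = 5.6e-05), *Plek* (-0.36, adjusted p = 1.4e-04), *Nckap1l* (-0.29, adjusted p = 0.00253) and the actin-bundling protein gene *Lcp1* (-0.35, adjusted p = 0.00321). *Lcp1* was the most abundant of the 22, with 61.9 ± 7.57 CPM with DMSO (SD, n = 8). Of 27 other myeloid surface genes tested, 13 were downregulated and none upregulated (median -0.32), led by the Fc receptor-like gene *Fcrls*, which fell from 19.2 ± 7.52 to 11.0 ± 3.48 CPM (± SD of 8 samples) in 8 of 8 batches (-0.79, SE 0.074, adjusted p = 4.2e-06). *Pld4* of the phospholipase D family (-0.50, adjusted p = 6.2e-04), *Ms4a6d* (-0.32, adjusted p = 0.00118) and the nucleotide receptor gene *P2ry6* (-0.34, adjusted p = 0.00404) followed. *Sirpa*, the most abundant and also expressed outside myeloid cells, had 0.040 (adjusted p = 0.446). These lists and the members were chosen with earlier results on these samples known.

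Other cell types moved in both directions in the same samples. Of 12 stellate cell and fibroblast markers tested, 6 were downregulated (median log2 fold change -0.19), and their summed level was 9757 to 19980 CPM with DMSO and 9318 to 17870 CPM with adjudin, lower in 7 of 8 batches. Those with the smallest p were *Acta2* (-0.29, adjusted p = 9.5e-06), *Thy1* (-0.31, adjusted p = 2.6e-05), *Postn* (-0.27, adjusted p = 8.0e-05) and *Col3a1* (-0.19, adjusted p = 7.9e-04), and the most abundant, *Col1a1*, had -0.089 (adjusted p = 0.0659). Of 10 beta cell markers, 4 were upregulated (median 0.14, summed 36110 to 121700 CPM with DMSO and 40220 to 105400 CPM with adjudin), namely *Glp1r* (0.24), *G6pc2* (0.16), *Pdx1* (0.16) and *Nkx6-1* (0.14), while the most abundant, *Ins2*, had 0.049 (adjusted p = 0.492). Of 10 endothelial markers 1 was upregulated (median 0.076), *Flt1* with 0.19 (adjusted p = 0.00653), and the most abundant was *Eng* (9.0e-05, adjusted p = 0.999). None of 8 acinar, 7 ductal and 7 alpha, delta and PP cell markers was called, with medians of -0.26, 0.034 and 0.12 and *Ctrb1*, *Spp1* and *Gcg* the most abundant. None of 3 tested T and NK cell, 2 B cell and 4 dendritic cell markers was called. The summed T and NK cell markers, 8.60 to 11.4 CPM with DMSO and 9.05 to 12.4 CPM with adjudin, were higher with adjudin in 6 of 8 batches. The part of these cell types in the fall of the myeloid genes was not tested.

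**Figure D4:**
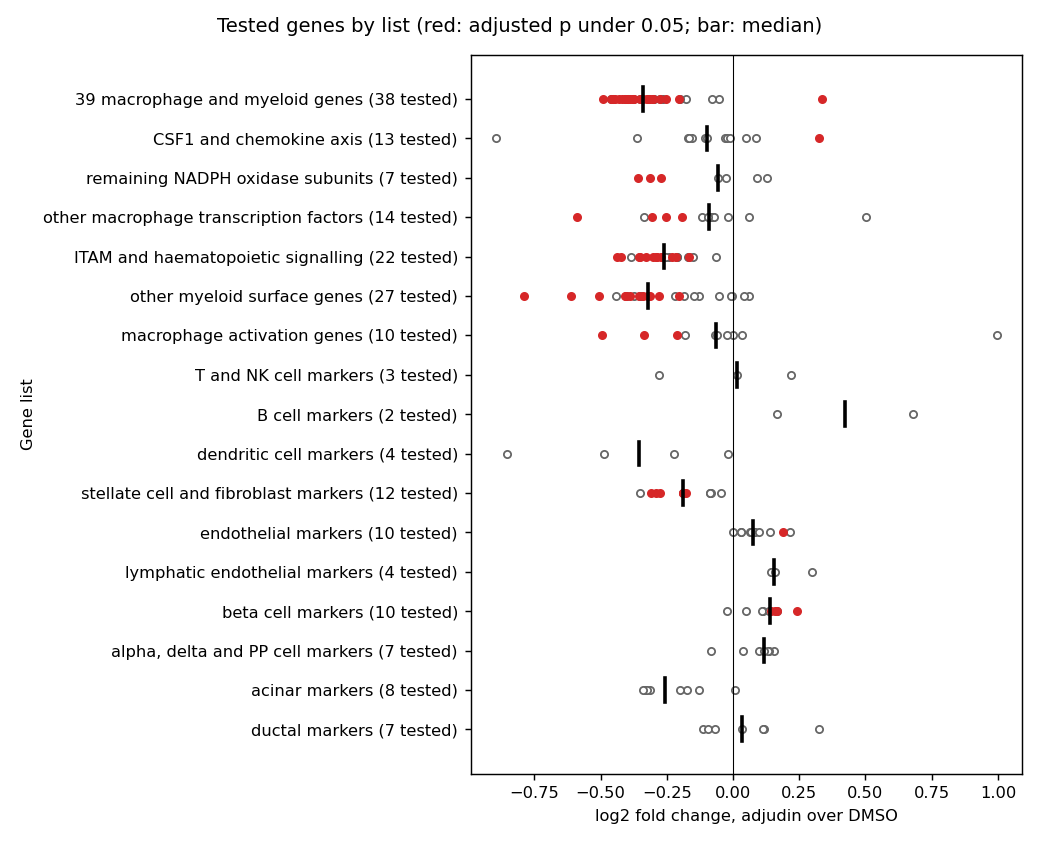
Log2 fold change of adjudin over DMSO (x axis) for every tested gene of each list (y axis), with red for an adjusted p under 0.05, open circles for the others and a black bar at the median of the list. The median is -0.34 for the macrophage and myeloid genes, -0.32 for other myeloid surface genes, -0.19 for stellate cell and fibroblast markers and 0.14 for beta cell markers.

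Across batches the members did not all vary together. Among the 8 DMSO samples the median SD of log2 CPM was 0.32 for the 38 tested members and 0.25 for all tested genes. The correlation of each of 37 members with *Csf1r* over these samples was positive for 33, with a median Pearson r of 0.62. None passed after adjustment over the 37 (15 had an unadjusted p under 0.05 by the exact permutation test). The closest were *C3ar1* (Pearson r = 0.93, exact permutation p = 0.00169, adjusted p = 0.0624; Spearman rho = 0.90, exact permutation p = 0.00456), *Irf8* (r = 0.89, exact permutation p = 0.00350, adjusted p = 0.0647; rho = 0.93, exact permutation p = 0.00223) and *Spi1* (r = 0.83, exact permutation p = 0.00665, adjusted p = 0.0820; rho = 0.74, exact permutation p = 0.0458). Without the 2 samples farthest from the median of *Csf1r* (batches 8 and 1) the r of these genes was 0.85, 0.86 and 0.80.

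Correlations with *Ptprc* gave another order. With *Ptprc* as the reference 10 of 37 members passed the exact permutation test after adjustment, 2 of them also by Spearman rho. These were *Cd53* (Pearson r = 0.92, exact permutation p = 0.00154, adjusted p = 0.0284; Spearman rho = 1.00, exact permutation p = 5.0e-05) and *Ms4a6c* (r = 0.94, exact permutation p = 0.00114, adjusted p = 0.0284; rho = 0.95, exact permutation p = 0.00114). Without the 2 samples farthest from the median of *Ptprc* (batches 5 and 7) their r was 0.88 and 0.95. For the other members that passed, r without these samples was between 0.29 (*Mpeg1*, 0.81 with all samples) and 0.92 (*Ctss*). It was 0.52 for *Mrc1*, 0.54 for *Cybb* and 0.59 for *Adgre1*. The r of *Cd53* with *Csf1r* was 0.034, and that of *Ptprc* with *Csf1r* 0.365. The samples with DMSO of batches 2 and 3 were high in *Cd53*, *Aif1* and *Msr1*, and that of batch 2 was the lowest in *Laptm5* and, level with batch 5, in *Csf1r*. *Cd14* had a negative r with both references, and neither passed (r = -0.48 with *Csf1r* and -0.69 with *Ptprc*, adjusted p = 0.368 and 0.136 by the exact permutation test). Without the 2 samples farthest from the median of each reference, the r of *Cd14* was -0.29 with *Csf1r* and 0.076 with *Ptprc*. Within 8 samples the points share the library scaling, so these correlations describe the samples at hand.

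**Figure D5:**
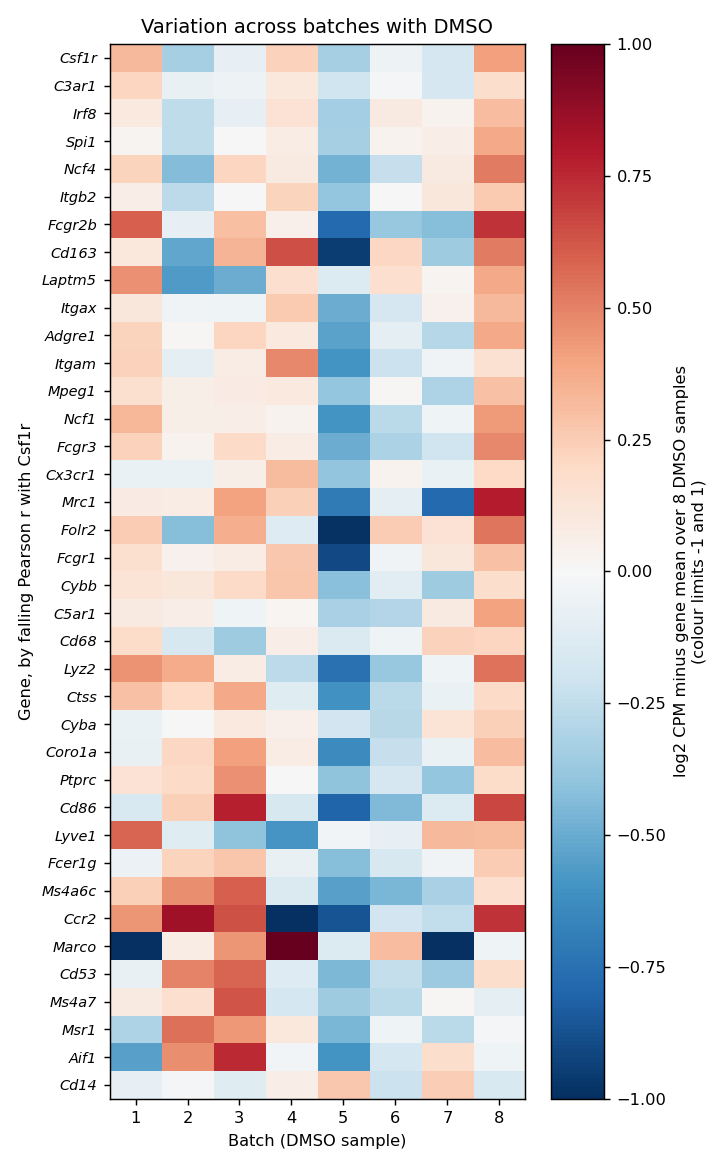
Log2 CPM minus the mean of each gene over the 8 DMSO samples (colour, limits at -1 and 1) by batch (x axis) for the 38 tested members (y axis, from the highest to the lowest Pearson r with Csf1r). The column of batch 5 is low for most genes, that of batch 8 is high for most, and batches 2 and 3 are high for the genes at the bottom, such as Aif1 and Msr1, where Cd14 is not.

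Outside all lists, the genes whose pattern over the 8 DMSO samples was most like that of *Csf1r*, among 13547 whose mean log2 CPM reached 1, included *Clip2* (Pearson r = 0.98), *Bin2* (0.96), *Runx3* (0.95), *Sh3bp2* (0.95), *Tmc8* (0.94), *Cyth4* (0.94), *Fpgs* (0.94), *Cfp* (0.94) and *B4galt5* (0.93), ranked by r with no test. Of these, *Bin2* (-0.33, adjusted p = 0.00861), *Runx3* (-0.38, adjusted p = 0.00247) and *Sh3bp2* (-0.18, adjusted p = 0.0111) were downregulated by adjudin, whereas *Clip2*, at 0.015 on the log2 scale, was not called (adjusted p = 0.836).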

How the data were processed

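Per the labels and the study's methods, paired-end reads were aligned by the authors with HISAT2 2.0.5 to GRCm38 (mm10), and featureCounts 1.5.0-p3 counted them. They deposited raw counts per gene, not normalised, with a gene length in another column. The sources used here do not state the strand setting or the annotation release. For 36 of the 39 members the listed gene length equals the exon union of GENCODE M21 (GRCm38), from which overlaps and shared 100-base stretches were taken.

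Genes were filtered with filterByExpr (16910 of 54532 kept) and scaled with TMM factors in R 4.3.3. The test was edgeR 4.0.16 (quasi-likelihood, robust, batch and treatment as terms), adjusted by the Benjamini-Hochberg method over all tested genes at a threshold of 0.05. Log2 CPM used a prior count of 2. The labels give the batch numbers. Samples of the same number deviated together (correlation 0.37 to 0.69 over 8 pairs), and 8 of 8 adjudin samples were closest to the DMSO sample of their own batch. No samples of a treatment agreed within sampling noise. A sample was the islets of 1 to 2 mice, and nothing states whether both samples of a batch came from the same mice. With the batch as a term, the edgeR test sets the treatment difference against its variation over these 8 batches. That variation is estimated with information shared across the tested genes. Correlations used exact two-sided permutation of all 40320 pairings.

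Members and lists were chosen with earlier results of these data known. Values by sample are given for the 10 called members with the smallest p, the 5 highest per length and 10 named lineage and function genes. *Lyve1* was added after its values were seen. Other lists are given by counts and up to 4 called members and the most abundant gene. Alternatives were DESeq2 1.42.0, limma-voom (limma 3.58.1), other scalings and filters, no batch term, and each batch left out. The pipeline was tested on simulated data. A few genes chosen by this naming rule are left out of the text.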

Additional observations from a re-analysis of the deposited data

Results flagged for a closer look

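In 4 of 76 sets of 8 samples (38 members in each treatment) a sample lay far from the other 7, judged on log2 CPM by Dixon's test. Chance alone flags about 1 in 20 such sets. With DMSO, *Fcgr1* had 3.96 CPM in batch 5, below the next lowest sample at 7.28 CPM. With adjudin, *Fcgr1* had 3.76 CPM in batch 2 (next lowest 5.07 CPM), *Irf8* had 12.5 CPM in batch 2 (next lowest 17.7 CPM), and *Aif1* had 13.3 CPM in batch 3 (next highest 9.16 CPM).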

How the results depend on the processing

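The count of downregulated members was 27 to 29 with other scaling factors, filters, DESeq2 and limma-voom with the batch term (35 members had an adjusted p in DESeq2 and 34 passed the stricter filter), and 27 without robust estimation, which was chosen after seeing the data. With the replicate block removed it was 0 in edgeR, DESeq2 and limma-voom, with 0 upregulated members, and 1, 6 and 0 of all genes were called in turn (the last 2 fits were added after seeing the data). Leaving out 1 batch gave 18 to 28 downregulated members, 0 to 1 upregulated members and 496 to 1254 called genes, against 1025 in all. Without a filter on low counts 1545 genes were called. Of the 27 downregulated members, 17 passed in all 8 such fits and 10 lost the call in at least 1. Without a filter, *Ptprc* (adjusted p = 6.9e-05) and *Cybb* (2.6e-05) passed and *Ctss* did not (0.0750); the cause was not tested. *Lyz2* passed with upper quartile factors (0.0446), with the stricter filter (0.0495) and without robust estimation (0.00211), and *Itgam* was lost in the last (0.0617). With 1 batch left out, *Folr2* ran from -0.15 to 0.013 (without batch 4) and *Cd14* from -0.12 to 0.016 (without batch 7). The median log2 fold change of all genes moved from 0.0032 to at most 0.0096 and at least -0.0053 with other scalings. Members correlated with *Csf1r* numbered 0 by Pearson r, 10 with *Ptprc* as the reference, 3 with library totals only, and 0 to 4 with 1 DMSO sample left out, the most without batch 7. At 24190102 reads or more per sample, the DMSO samples held 5 to 25 counts of *Ccr2*, 5 to 49 of *Marco* and 3 to 15 of *Clec10a*. Their log2 differences ran from -0.82 to 0.61, -1.58 to 1.98 and -0.91 to 0.94 over the batches, and the parts of depth and of spread between batches in this were not tested.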

Other observations

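Genes of macrophage activation were described as a further list. Of 10 tested, 3 were downregulated and none upregulated (median log2 fold change -0.065). The elastase gene *Mmp12* fell from 37.0 ± 5.61 to 29.4 ± 4.32 CPM (± SD of 8 samples each; log2 fold change -0.33, SE 0.053, adjusted p = 6.6e-04 from edgeR) in 8 of 8 batches, the arginase gene *Arg1* from 60.0 ± 9.81 to 51.6 ± 7.00 CPM (-0.21, SE 0.052, adjusted p = 0.0247) in 7 of 8, and the interleukin gene *Il1b* from 2.14 ± 0.768 to 1.53 ± 0.684 CPM (-0.50, SE 0.14, adjusted p = 0.0375) in 8 of 8. *Tnf* (-0.069, adjusted p = 0.919), *Il6* (-0.18, adjusted p = 0.126) and *Ptgs2* (-0.0011, adjusted p = 0.995), the most abundant of the list, did not pass. *Nos2*, the inducible nitric oxide synthase gene, which beta cells can also express, went the other way without passing. Its level was 0.646 ± 0.372 CPM with DMSO and 1.27 ± 0.462 CPM with adjudin, above it in each of 8 batches (± SD of 8 samples each; log2 fold change 1.00, SE 0.30, adjusted p = 0.0615).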
